A study of Mus musculus with 6 samples.

Results

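The Schlafen genes are a family of interferon-inducible genes that lie together on a single mouse chromosome. Their transcripts were measured here in the heart ventricles of mice with and without Trex1, the main DNA exonuclease of mammalian cells. The members are Slfn1, Slfn2, Slfn3, Slfn4, Slfn5, Slfn8 and Slfn9, 7 of the 18193 genes with a probe set of their own, and 12 of the array's 45101 probe sets were annotated to them. The probe sets were taken by gene symbol, and the family itself was chosen by its measured Trex1 KO against Trex1 WT values on these arrays. Every difference between the genotypes below is therefore a description. The p-values place a probe set within the fit over the whole array and are not independent evidence about the family.

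There were 6 mice, each with 1 array of total RNA from ventricle tissue, and every animal was a Rag2 knockout (RAG2KO), a genotype that leaves mice without mature lymphocytes of the T and B lineages. In the Trex1 WT group 3 mice carried wild-type Trex1, and in the Trex1 KO group 3 lacked it. The animals formed 3 littermate pairs, named A, B and C, with in each 1 Trex1 WT and 1 Trex1 KO mouse. The sources used here do not give age, strain or the way the alleles were made. The arrays read the RNA of the whole tissue, so a change in the number of cells of a type and a change in the RNA per cell cannot be told apart.

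Schlafen proteins share an amino-terminal Schlafen domain and fall into 3 groups by length. Slfn1 and Slfn2 are short, Slfn3 and Slfn4 are intermediate, and Slfn5, Slfn8 and Slfn9 are long and carry a helicase-like region. Type I interferon raises several of the mouse genes through its receptor and kinases, and interferon-stimulated response elements in promoters are bound by factors that include Irf9. The family is best known for slowing lymphocyte and myeloid cell growth, for binding and cutting transfer RNA and for restricting viruses.

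The promoter windows of Slfn4 and Slfn1, the members with the largest differences between the genotypes, are shown in full, with those of Slfn5, Slfn8 and Slfn9, which hold the letters of an interferon-stimulated response element. They come from RefSeq (assembly GRCm38.p6) and run from 250 bases before to 50 bases after an annotated start, on the strand of the gene, in 5′ to 3′ order. All 7 genes had a window, and Slfn8 had 2 that overlap, of which 1 is shown. Capitals mark the letters of the interferon-stimulated response element, searched on both strands as GAAA, any 2 bases and GAAA again.
Slfn4, chr11:83174936-83175235, + strand: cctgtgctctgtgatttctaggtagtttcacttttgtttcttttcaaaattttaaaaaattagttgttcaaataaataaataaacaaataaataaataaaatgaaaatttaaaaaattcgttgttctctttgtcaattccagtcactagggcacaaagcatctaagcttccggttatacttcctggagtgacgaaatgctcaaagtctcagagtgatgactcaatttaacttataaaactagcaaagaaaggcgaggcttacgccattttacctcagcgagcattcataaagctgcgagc
Slfn1, chr11:83116570-83116869, + strand: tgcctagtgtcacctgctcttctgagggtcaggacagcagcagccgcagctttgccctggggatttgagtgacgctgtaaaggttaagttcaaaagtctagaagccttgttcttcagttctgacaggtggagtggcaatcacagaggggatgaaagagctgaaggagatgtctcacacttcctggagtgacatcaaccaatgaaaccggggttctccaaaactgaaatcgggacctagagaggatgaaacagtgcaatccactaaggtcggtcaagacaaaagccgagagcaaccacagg
Slfn5, chr11:82951852-82952151, + strand: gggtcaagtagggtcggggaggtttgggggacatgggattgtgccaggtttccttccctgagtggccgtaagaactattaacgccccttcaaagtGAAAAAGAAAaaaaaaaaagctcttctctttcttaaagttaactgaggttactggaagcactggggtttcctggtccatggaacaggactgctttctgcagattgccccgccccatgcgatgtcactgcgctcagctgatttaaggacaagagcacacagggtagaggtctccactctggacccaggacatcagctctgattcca
Slfn8, chr11:83020761-83021060, - strand: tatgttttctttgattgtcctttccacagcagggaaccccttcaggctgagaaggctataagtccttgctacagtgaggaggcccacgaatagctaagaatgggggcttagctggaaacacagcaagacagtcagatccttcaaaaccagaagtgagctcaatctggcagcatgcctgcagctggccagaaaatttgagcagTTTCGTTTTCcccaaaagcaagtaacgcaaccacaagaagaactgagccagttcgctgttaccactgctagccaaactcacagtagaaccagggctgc
Slfn9, chr11:82991781-82992080, - strand: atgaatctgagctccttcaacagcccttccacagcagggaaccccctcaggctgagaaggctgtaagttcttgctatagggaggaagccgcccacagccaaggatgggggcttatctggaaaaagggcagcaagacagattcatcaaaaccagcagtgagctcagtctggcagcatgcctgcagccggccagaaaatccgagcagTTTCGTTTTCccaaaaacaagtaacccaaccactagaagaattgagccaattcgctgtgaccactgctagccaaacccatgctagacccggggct

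The response element letters were found in the windows of Slfn5, Slfn8 and Slfn9. Of 32851 promoter windows of the same length in the table, 3.44% held them. In Slfn8 and Slfn9 the letters were the same (TTTCGTTTTC). They stood 48 to 39 bases and 45 to 36 bases before the annotated starts that the windows shown are set on. From the other annotated start of Slfn8 the same letters lay at 136 to 127 bases. In Slfn5 they were GAAAAAGAAA, at 155 to 146 bases before its annotated start, inside a run rich in adenine. The windows of Slfn1, Slfn2, Slfn3 and Slfn4 did not hold these letters, which says nothing about other forms of the element or about other regions. The letters of the gamma-activated site (TTCNNNGAA, the same on both strands) were in the window of none of the 7 genes and in 8.3% of all windows. The windows shown for Slfn8 and Slfn9 were identical at 80.7% of aligned positions, against at most 50.6% for any other pair among the family and the neighbouring Slfn14.

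The Trex1 probe set, which the platform annotation shares with Atrip, had signals of 714, 340 and 887 in the wild-type mice and of 9.45, 20.6 and 34.2 in the knockouts, in the order A, B, C (log2 difference -4.10, SE 0.38, limma adjusted p = 0.00109). The sources used here do not say whether this probe set reads the deleted stretch. The Actb 3′ to 5′ ratio, a measure of RNA integrity and labelling, was 1.80 to 2.29 in Trex1 WT and 1.60 to 1.68 in Trex1 KO, and the 18S signal was 924 to 13708 in Trex1 WT and 798 to 2834 in Trex1 KO. The highest of the 27 bacterial control probe sets, which have no target in mouse tissue, reached a signal of 69.8 and is used below as a mark of background. Heart muscle genes were at very high signals in both groups (Myh6 at 50557 ± 5784 and 50053 ± 3488, SD, n = 3).

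Slfn4 rose in the Trex1 KO hearts, and the other tested members lay above Trex1 WT by smaller amounts that did not pass the test. Of the 12 probe sets, 9 passed a filter on low signals and were tested among 27022. They represent 6 genes when the brightest probe set stands for each; Slfn3 fell below the filter. Of these 6 genes, 1 was higher and 0 lower (limma, Benjamini-Hochberg adjusted p under 0.05), against 0.312% higher and 0.039% lower of all 12808 genes tested. Among the 9 probe sets 1 was higher, against 0.218% of all probe sets. With the littermate pair as a block, 2 of 6 genes passed, Slfn4 and Slfn8, against a background of 0.531%, and 2 of 9 probe sets, against 0.389%. At an unadjusted p under 0.05 there were 5 of 6 genes higher and 0 lower, against 3.06% and 2.3% of all genes. The family was picked on this contrast, so these shares are given without a reading.

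By its brightest probe set each tested gene of the family was higher in Trex1 KO. The difference was above 0 for 6 of 6 genes, against 44.5% of all genes, and 6 of 6 were higher in Trex1 KO in all 3 littermate pairs, against 13.1%. The 3 Trex1 KO arrays lay above all 3 Trex1 WT arrays for 5 of 6 genes, against 5.06% of genes, the exception being Slfn9. By probe set the counts were 7 of 9 higher in all pairs (14.2% of all probe sets) and 5 of 9 without overlap (5.57%). The median log2 difference of the 6 genes was 1.14, and that of all tested genes was -0.02. These counts depend on the probe set: the other one of Slfn9, which was brighter in the wild type, was lower in the knockout of pair C. The other one of Slfn1, below the filter, was also brighter in the wild type (mean 47.4 against 24.0). It was lower in the knockouts of pairs A and C. For Slfn1 and Slfn9 the probe set counted was thus the brightest only through its Trex1 KO signals. Slfn1 reached the filter only through its Trex1 KO signals, so the tested members are not the whole family and the counts are no support for a direction.

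**Figure D1:**
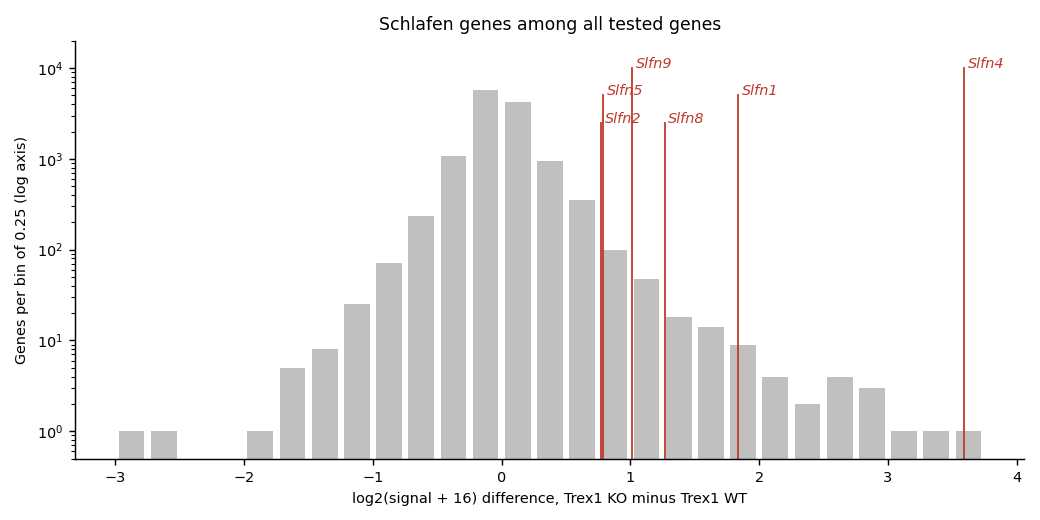
Number of tested genes by log2 difference in signal, Trex1 KO minus Trex1 WT, in bins of 0.25 with a logarithmic count axis; red lines mark the 6 tested Schlafen genes. All 6 lie to the right of 0.63, the upper end of the central 95% of the 12808 genes, and Slfn4 stands in the last occupied bin at 3.59.

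Of the short members, Slfn1, whose product was first described as a brake on thymocyte growth, was near background in Trex1 WT. Its brighter probe set (1418612_at) gave 33.8, 30.5 and 7.71 in the wild types by pair (A, B, C), then 86.8, 218 and 87.8 in the knockouts. All 3 wild-type values lay below the highest bacterial control and all 3 knockout values above it, with the Trex1 KO B heart highest. The log2 difference was 1.84 (SE 0.45, 95% interval 0.83 to 2.84, limma adjusted p = 0.344, and 0.156 with the block). Because the wild-type signals were at background, the difference sets no level for them. The Trex1 KO mean of 131 ± 75.6 (SD, n = 3) was 1.88-fold the highest bacterial control. With a pseudocount of 64 in place of 16 the difference was 1.09.

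The other Slfn1 probe set (1447614_at) did not follow the first. Its signals were 29.3, 28.5 and 84.4 in Trex1 WT and 8.57, 56.0 and 26.3 in Trex1 KO, below the filter and overlapping (log2 difference -0.48). The pairs disagreed in sign, and 5 of the 6 values lay below the highest bacterial control, so it was not well above background.

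Slfn2, whose loss in mice weakens T cells and monocytes, was well above background in every heart. Wild-type signals were 556, 941 and 856 by pair, and those of the knockout littermates 1054, 1985 and 1101. The groups did not overlap, although the lowest knockout value was only 1.12 times the highest wild-type one. The log2 difference was 0.78 (SE 0.26, 95% interval 0.20 to 1.35, limma adjusted p = 0.741, and 0.0796 with the block). Leaving out the knockout heart of pair B gave 0.48. By pair (A, B, C) it was 0.90, 1.06 and 0.36.

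Of the intermediate members, Slfn4, a gene of monocytes and macrophages that interferon and macrophage activation raise, showed the largest difference of the family. The wild types of pairs A, B and C had signals of 83.0, 47.9 and 53.1, and the knockouts had 666, 1184 and 914. In the wild type only the A animal was above the highest bacterial control, while the lowest knockout heart was 8.02 times the highest wild-type heart. The log2 difference was 3.59 (SE 0.25, 95% interval 3.03 to 4.15, limma adjusted p = 0.000182), rank 3 among the 27022 probe sets tested. Its size depends on the pseudocount, since the wild-type signals were low: it was 3.89 with 1 and 2.95 with 64, and the ratio of the mean signals was 15.0. The 3 pairs gave 2.78, 4.23 and 3.75 in the order A, B, C. The call was lost when the Actb ratio, whose values did not overlap between genotypes, was a covariate (difference 3.47, limma adjusted p = 0.0656). With this covariate 8 probe sets of the whole array passed as higher and 1 as lower, against 59 and 7 without it. The part of RNA quality in the difference was not tested.

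Slfn3, best known from intestinal epithelium and T cells, was at background. Its own probe set gave 38.5, 13.9 and 46.3 in Trex1 WT and 28.8, 29.6 and 21.8 in Trex1 KO, all below the highest bacterial control, and it was not tested. A further probe set (1450322_s_at) is annotated to both Slfn4 and Slfn3 and cannot tell them apart; the transcript it was designed on is that of Slfn3. It gave 22.0, 8.21 and 4.13 in Trex1 WT and 73.5, 85.3 and 103 in Trex1 KO, without overlap. The wild-type values were all below the highest bacterial control, and the Trex1 KO mean of 87.2 ± 14.8 (SD, n = 3) was 1.25-fold that mark. It lay below the filter and was not tested (log2 difference 1.95).

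**Figure D2:**
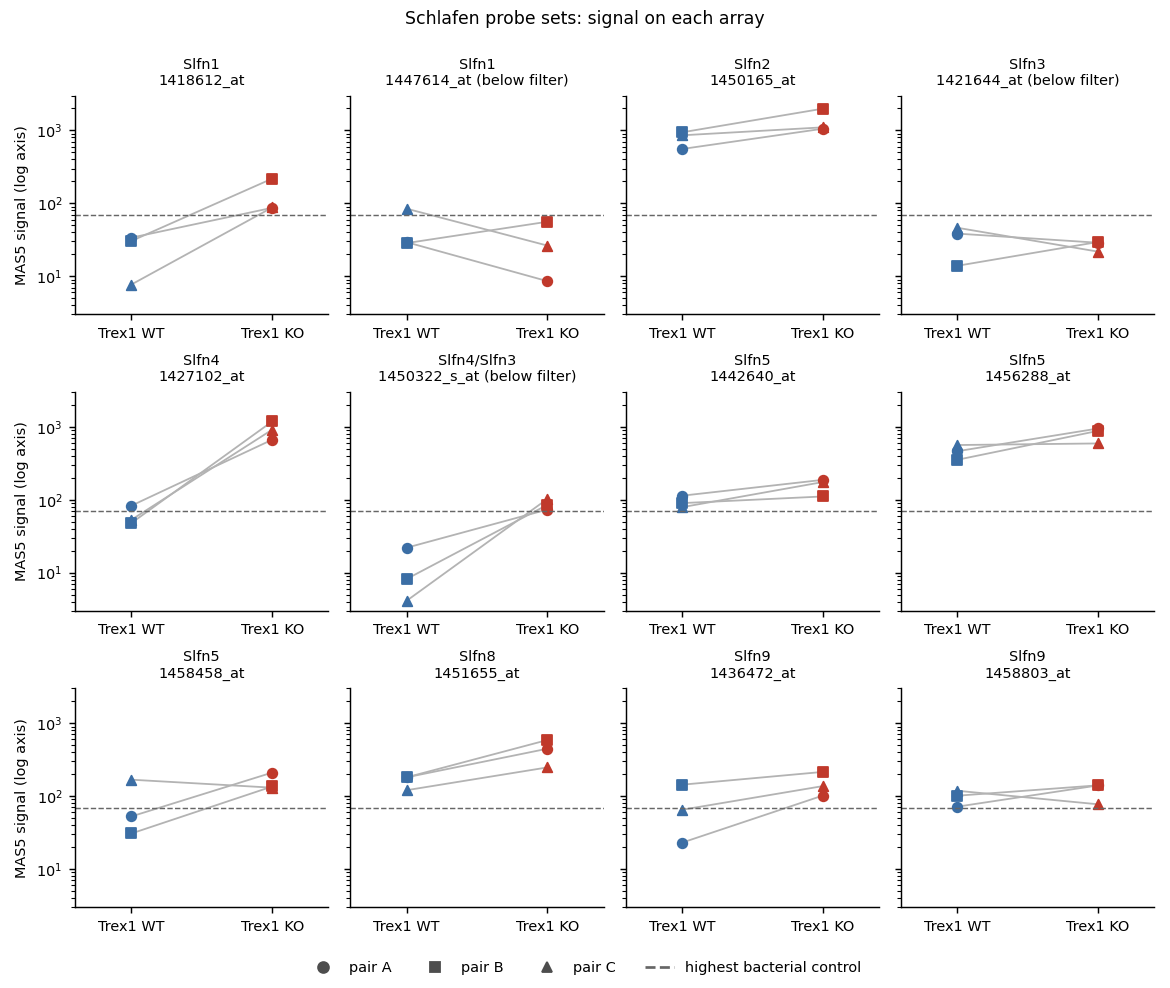
MAS5 signal (logarithmic axis) of each of the 12 Schlafen probe sets on every array, with Trex1 WT in blue and Trex1 KO in red; symbols give the littermate pair, grey lines join littermates and the dashed line is the highest bacterial control at 69.8. Slfn4 crosses from near the dashed line to between 666 and 1184, and Slfn3 stays below the line on all 6 arrays.

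Of the long members, Slfn5, a nuclear protein that can lower transcription of interferon-induced genes, was read by 3 probe sets. The brightest (1456288_at) read 463, 353 and 562 in the wild types by pair (A, B, C) and 948, 880 and 591 in the knockouts. The groups did not overlap, but the gap was narrow: in pair C the signals were nearly the same, and by pair the log2 differences were 1.01, 1.28 and 0.07. The mean difference was 0.79 (SE 0.21, 95% interval 0.31 to 1.26, limma adjusted p = 0.492, and 0.322 with the block). With the Actb ratio as a covariate it was 0.17 (limma adjusted p = 0.946). The dimmer probe sets differed in their pairs. One (1442640_at) gave 114, 89.9 and 79.0 against 187, 111 and 175, with its largest pair difference, 1.01, in pair C (mean 0.64, limma adjusted p = 0.890). The last (1458458_at) gave 52.7, 30.8 and 168 against 210, 136 and 131, with a pair C difference of -0.33 (mean 1.03, SE 0.46, limma adjusted p = 0.917). The 3 probe sets thus gave means between 0.64 and 1.03, none past the threshold, and did not rank the pairs alike.

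Slfn8, a long member studied for its part in T cell growth and in neuroinflammation, read 181, 181 and 121 in the wild types by pair (A, B, C) and 447, 589 and 248 in the knockouts. Every knockout heart lay above every wild-type heart, and littermates differed by ratios of 2.47, 3.25 and 2.05. The log2 difference was 1.27 (SE 0.30, 95% interval 0.60 to 1.93). It did not pass without the block (limma adjusted p = 0.288) and rose with it (SE 0.19, limma adjusted p = 0.0295).

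Slfn9, a close relative of Slfn8 whose promoter window is shown above, was read by 2 probe sets. The brighter (1436472_at) read 23.0, 144 and 65.0 in the wild types by pair (A, B, C) and 102, 215 and 137 in the knockouts. The groups overlapped because Trex1 WT B was above the A and C knockout hearts, while each knockout exceeded its own littermate. The log2 difference was 1.02 (SE 0.48, 95% interval -0.05 to 2.08, limma adjusted p = 0.927, and 0.406 with the block). Leaving out the wild type of pair A gave 0.50, and leaving out that of pair B gave 1.52. The other (1458803_at) gave 71.8, 101 and 118 against 140, 141 and 77.3, a mean difference of 0.24 with pair C at -0.53 (95% interval -0.43 to 0.92, limma adjusted p = 0.968). Probe sequences were not used here, so how far the probes of Slfn8 and Slfn9 also bind the transcripts of the other gene was not tested.

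**Figure D3:**
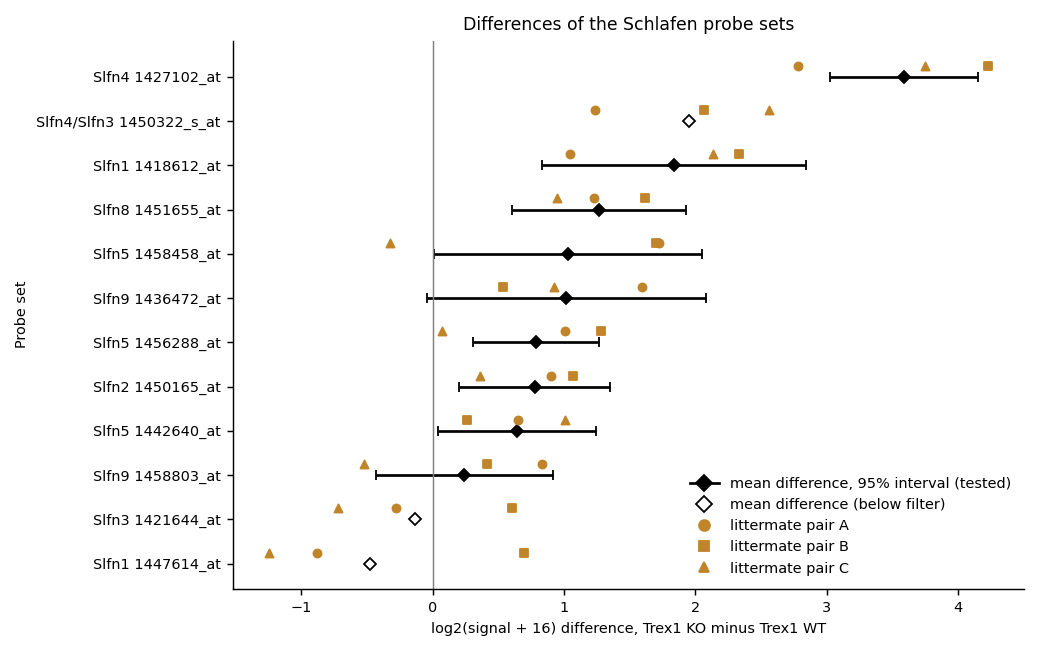
Log2(signal + 16) difference, Trex1 KO minus Trex1 WT, of each Schlafen probe set: black diamonds with bars are limma means with 95% intervals (n = 3 per group), open diamonds are probe sets below the filter, and brown symbols are the littermate pairs. Slfn4 has a mean of 3.59 with an interval of 3.03 to 4.15, and the pair C triangles fall below 0 for 1458458_at of Slfn5, 1458803_at of Slfn9, Slfn3 and 1447614_at of Slfn1.

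In order of their difference with the pseudocount of 16 the genes ran Slfn4, Slfn1, Slfn8, Slfn9, Slfn5 and Slfn2. The intervals of all neighbours after Slfn4 overlapped, and differences between genes were not tested. The order depends on the pseudocount: with 64, Slfn9 was last at 0.67, below Slfn2 at 0.74 and Slfn5 at 0.73, and Slfn1 at 1.09 was beside Slfn8 at 1.08. The place of Slfn1 and the size for Slfn4 rest on wild-type signals near or below the highest bacterial control. Slfn10-ps, a pseudogene of the cluster, had signals of at most 5.18 on every array. Slfnl1, a more distant relative on another chromosome, had a wild-type signal of 120 ± 23.7 and a knockout signal of 128 ± 17.6 (SD, n = 3), with a log2 difference of 0.08 (limma adjusted p = 0.988). No signal of Slfn14 was analysed here.

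The knockout hearts differed among themselves. Trex1 KO B had the highest knockout signal for 5 of the 6 tested genes (Slfn1, Slfn2, Slfn4, Slfn8 and Slfn9), and Slfn5 was highest in Trex1 KO A. Trex1 KO A was the lowest of the 3 for 4 of the genes and Trex1 KO C for 2. The largest pair difference was in pair B for 5 of 6 genes. By pair (A, B, C) the median over the 6 genes was 1.14, 1.45 and 0.93, where those of all tested genes lay between -0.04 and 0.00. Among the wild types no animal stood out, as each was the lowest for 2 genes. The littermates of pair C also differed from the rest in the Y-linked transcript Eif2s3y, at 6.60 and 47.3 against 2138 to 2571 in the other 4 animals. Both pair C values lay below the highest bacterial control. By this transcript the pair C animals read as female and the other 4 as male. Sex therefore cannot be told apart from pair C, and its part in the smaller pair C differences of Slfn2, Slfn5 and Slfn8 was not tested.

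Summed signals of natural killer cell, neutrophil and macrophage markers were also highest in Trex1 KO B, while those of lymphocyte and dendritic cell markers were highest in a wild type. The summed signal of 8 natural killer cell markers was 2783 in Trex1 KO B, 1059 and 1223 in Trex1 KO A and C and 756 to 1144 in Trex1 WT, with 0 of 8 markers past the threshold and a median log2 difference of 0.64. That of 10 neutrophil markers was 670, 1846 and 1468 in the knockouts of pairs A, B and C, and 738 to 875 in the wild types (0 of 5 tested past the threshold, median 0.79). That of 12 monocyte and macrophage markers ranged from 14823 to 22538 in Trex1 WT and from 18445 to 24209 in Trex1 KO (0 of 12, median 0.27). A few genes made up much of these sums in Trex1 KO B. Gzma gave 1582 of the natural killer sum, and S100a8 and S100a9 gave 678 and 736 of the neutrophil sum. By mean log2 difference Elane (-1.475), Ngp (-0.59) and Cxcr2 (-0.38) were lower in Trex1 KO and the other neutrophil markers higher. Among the natural killer markers only Ncr1 (-0.08) was lower. Elane and Cxcr2 were below the filter, and so were Mpo (1.36), Ltf (0.75) and Camp (0.21) among the higher neutrophil markers. The part of natural killer cells, neutrophils and macrophages in the Schlafen differences was not tested.

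Of 52 tested markers in the 8 cell type lists 0 passed in limma, also with the block, where 0.312% of all genes were higher and 0.039% lower (0.531% and 0.0937% with the block), so that few or none would be called among any 52 genes. At an unadjusted p under 0.05 there were 4 higher and 1 lower, against 3.06% and 2.3% of all genes. The markers with the smallest p were C1qa, a complement component made by macrophages (log2 difference 0.52, limma adjusted p = 0.416), the neutrophil receptor Csf3r (0.82, 0.901), the granzyme Gzma of natural killer cells (0.96, 0.917), and the endothelial receptor Tek (-0.36, 0.890). In the remaining lists they were the dendritic cell receptor Flt3 (-0.51, limma adjusted p = 0.954), the fibroblast receptor Pdgfra (-0.32, 0.926), the calcium release channel Ryr2 of heart muscle (-0.10, 0.968) and the T cell gene Cd8a (-0.29, 0.974). Cd8a was the only T and B lymphocyte marker tested, and 3 of 6 dendritic cell markers were tested. Of 9 T and B lymphocyte markers, 6 were at or below the highest bacterial control on all 6 arrays, among them Cd3d and Cd3e of the T cell receptor complex and Cd79a and Cd79b of the B cell receptor. Their summed signal was 224 to 397 in Trex1 WT and 255 to 369 in Trex1 KO. Dendritic cell markers summed to 505 to 732 and 539 to 646, endothelial ones to 10461 to 15178 and 10315 to 12880, fibroblast ones to 37123 to 46629 and 42270 to 46619, and heart muscle ones to 315701 to 397114 and 342481 to 380344.

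The tested genes on either side had smaller differences than the tested genes of the family by their brightest probe sets. In the RefSeq gene table the 9 numbered Schlafen loci lie in a row on chromosome 11. Of the 5 nearest genes on the array on each side, 7 were tested and 0 passed in limma, with 0 also at an unadjusted p under 0.05. Of all genes 0.312% passed as higher and 0.039% as lower, and 3.06% and 2.3% at the unadjusted p. Few or none would therefore be called among any 7 genes. The log2 differences of the 7 tested neighbours ran from -0.32 to 0.19. Unc45b, a myosin chaperone next to Slfn5, had signals of 6480, 6196 and 6851 in Trex1 WT and 5756, 6019 and 5484 in Trex1 KO (-0.18, limma adjusted p = 0.954). On the other side Ap2b1, a subunit of the clathrin adaptor, had 902 ± 103 and 920 ± 127 (SD, n = 3; 0.02, limma adjusted p = 0.994). The remaining tested neighbours were Rad51d (0.12) and Nle1 (0.19) before the cluster and Rasl10b (0.00), 1700020L24Rik (-0.26) and Taf15 (-0.32) after it, with limma adjusted p of at least 0.954. Fndc8 (0.63), Unc45bos (-0.50) and Gas2l2 (0.03) were below the filter and not tested. Within the cluster, the long noncoding AI662270 beyond Slfn3 had a difference of 0.06 (limma adjusted p = 0.994), and Slfn5os, which overlaps Slfn5, had signals of at most 28.1.

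**Figure D4:**
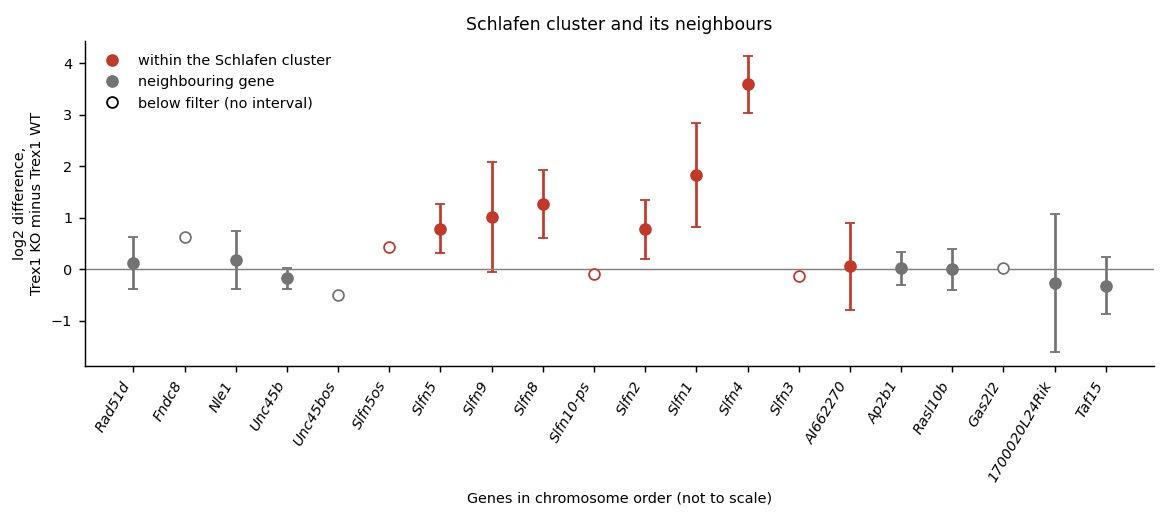
Log2 difference, Trex1 KO minus Trex1 WT, of the Schlafen genes and 5 genes on each side in chromosome order, equally spaced; bars are 95% intervals from limma (n = 3 per group) and open circles are genes below the filter. Tested Schlafen genes lie between 0.78 and 3.59, and tested neighbours between -0.32 and 0.19.

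Of the listed interferon signalling genes, the feedback regulator Usp18 and the transcription factor Irf7 rose. Of 25 listed genes 24 had a probe set with a single symbol and 19 were tested, of which 2 rose and 0 fell in limma, where 0.312% and 0.039% of all genes did. With the block the counts were also 2 and 0 (0.531% and 0.0937% of all genes), and at an unadjusted p under 0.05 they were 4 and 0 (3.06% and 2.3%). The median log2 difference was 0.06, against -0.02 over all tested genes. Usp18, which restrains the interferon receptor, rose from 650 ± 127 to 6660 ± 666 (SD, n = 3), a log2 difference of 3.34 (SE 0.15, limma adjusted p = 6.54e-06). Irf7, the factor that drives interferon alpha genes, rose from 667 ± 124 to 4140 ± 1362, a log2 difference of 2.57 (SE 0.22, limma adjusted p = 0.000728). Of the transcription factors of the pathway, Irf9 had a difference of 0.62 (limma adjusted p = 0.222) and Stat2 of 0.78 (0.614). The receptor chains Ifnar1 and Ifnar2 had differences of -0.09 and 0.05, and the kinases Jak1 and Tyk2 of 0.11 and 0.07, with limma adjusted p of at least 0.959. Ifnb1 had signals of 75.6 ± 21.8 and 74.9 ± 12.2, close to the highest bacterial control. The other ligands listed, Ifna1, Ifna2, Ifna4 and Ifng, were below the filter and not tested. Genes named here other than Usp18 and Irf7 were added after their values were seen.

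The genes whose log2 signals over the 6 arrays ran most like those of each member are given as a description, since genotype alone aligns many genes and 6 points share 3 litters. For Slfn4 they were Trim30d, Oas3 and Eif2ak2, with Pearson r of 0.996, 0.995 and 0.991, and log2 differences of 2.01, 2.78 and 1.23 that all passed the test (limma adjusted p = 0.000574, 0.00109 and 0.00373). For Slfn1 they were Scn3b, Lgals3 and Ms4a7 (r of 0.995, 0.991 and 0.991), of which none passed. For Slfn8 they were Apod, Dgka and Cdkn1a (r of 0.992, 0.992 and 0.990), of which Apod passed (log2 difference 1.77, limma adjusted p = 0.0483). For Slfn2 they were Haus7, Rnf135 and Pla2g4c (r from 0.971 to 0.995), for Slfn5 Cldnd1, Fxr1 and Tmem81 (0.983 to 0.986) and for Slfn9 Cytip, Gas6 and Cnrip1 (0.987 to 0.990), with differences from 0.16 to 0.59 that did not pass. Between members r was highest for Slfn1 with Slfn8 (0.945), Slfn1 with Slfn4 (0.913) and Slfn2 with Slfn9 (0.907), and lowest for Slfn5 with Slfn9 (0.343).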

How the data were processed

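Each value is the deposited intensity of a probe set on a linear scale, which the authors computed with MAS5 (per the submitters' processing notes, without its settings). Every array had a trimmed mean (2% at each end) of 500.0, so arrays were not scaled again. Signals were transformed to log2(signal + 16). Of 45037 probe sets that were not controls, those whose mean reached the 40th percentile (a signal of 53.8) were tested, in limma 3.58.1 and R 4.3.3 (lmFit, eBayes with an intensity trend, two-sided, 4 residual degrees of freedom), with Benjamini-Hochberg adjustment over all 27022 and a threshold of 0.05. The fit was checked on simulated data. The brightest probe set of a single symbol stood for a gene. Symbols came from the platform annotation, matched by gene identifier to RefSeq (GRCm38.p6) for 34741 of 34945. The deposited table names no genome build, and the printed promoter coordinates are those of the RefSeq table. The number of arrays limits the precision, and p-values measure the spread between 6 animals, each hybridised once.

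The littermate pair, from the series' design text, was a block in an alternative fit. Littermates' deviations from their group means had correlations of 0.151, 0.192 and 0.147, and other animals' had -0.161 to 0.0101. Other alternatives changed the pseudocount, scaling, filter, trend, a covariate and the arrays used. The members and gene lists were chosen with earlier results of these data known. Named genes were all family probe sets, the Trex1 check, 5 neighbours on each side, the 3 most correlated genes per member, called genes of the interferon list and the marker of smallest p in each list; other names were added after their values were seen. Protein sequences were not used here.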

Additional observations from a re-analysis of the deposited data

How the results depend on the processing

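Over the 9 tested probe sets and 19 alternatives, 161 values could be computed, of which 152 kept direction and side of the threshold, 5 passed where the reported value did not, 1 no longer passed and 3 changed sign. The count of 1 higher gene was 2 with the replicate block, 0 with the Actb ratio as a covariate and, in a fit added after seeing the data, 4 without pair C and with the block (Slfn2, Slfn4, Slfn5 and Slfn8). That fit has 1 residual degree of freedom and called 470 higher and 117 lower probe sets in all. Slfn4 ranged from 2.95 to 3.99 and passed in limma everywhere except with the covariate. Slfn8 ranged from 1.002 to 1.60 and passed only in the 2 blocked fits. With the covariate, 1458458_at of Slfn5 was at -0.68 and 1458803_at of Slfn9 at -0.11, and without pair A the latter was at -0.055; the cause was not tested. The count of 2 interferon signalling genes was 1 with the covariate. Slfn1 left the test in 6 alternatives, among them those without each single Trex1 KO array, because it then fell below the filter. The counts of lower genes were 0 throughout for both lists. Signals near the bacterial controls limit what can be said of Slfn1, Slfn3 and the wild-type level of Slfn4.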
